A study of Caenorhabditis elegans with 6 samples.

Results

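Small RNAs of untreated wild-type *C. elegans* adults were profiled from 2 of the 6 small RNA sequencing libraries of the series, chosen by their labels. The labels give these animals the genotype *pgl-1::RFP*, in which PGL-1, a constitutive P granule protein, carries a red fluorescent tag, and title the libraries as controls, so that wild-type here means wild-type for *eggd-1* and not the unmodified N2 strain. Whole animals were grown in synchrony at 20 °C on plates with OP50 bacteria and collected in bulk as adults, so fewer cells of a type and less small RNA per cell cannot be told apart, and no label says whether the 2 samples came from separate cultures. The remaining libraries, from untreated *eggd-1* mutants and from periodate-treated N2 and *eggd-1* animals, were not compared here. With a single group, the values below are descriptions without a test between groups.

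Worm small RNAs fall into classes that differ in how they are made and in the Argonaute protein that holds them. miRNAs are cut from hairpins and repress mRNAs through ALG-1 and ALG-2, piRNAs (also called 21U-RNAs) are transcribed from many short loci and guide the Piwi protein PRG-1, and 26G-RNAs are made by an RNA-dependent RNA polymerase and act with ERGO-1 in oocytes and embryos or with ALG-3 and ALG-4 during spermatogenesis. 22G-RNAs are the secondary siRNAs: RNA-dependent RNA polymerases copy them from a target RNA, so that they are antisense to it, and Argonautes such as CSR-1, which licenses expressed germline genes, or the WAGO proteins, which silence, take them up. Much of this synthesis takes place at germ granules, the perinuclear bodies to which PGL-1 belongs.

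The libraries were deep and similar in size. Library 1 held 28178881 and library 2 held 31245662 reads that mapped to the genome, of which 62.5% and 62.2% were assigned to a 22G-RNA, miRNA, piRNA, 26G-RNA or rRNA-derived siRNA. Values are given in RPM, the deposited read counts scaled to the genome-mapped reads of each library, for library 1 and then library 2, and levels between genes of unlike length are compared per 1000 bases of exon. A count of 0 allows up to 3 counts, which was 0.106 RPM in library 1 and 0.0960 RPM in library 2. Such limits and the intervals below describe counting error alone, because amplified reads that carry no molecular identifier do not each stand for a separate molecule. As a check of the labels, 22G-RNAs at *eggd-1* itself, listed as C38D4.4, stood at 78.1 and 81.1 RPM, and at 0.366 and 0.469 RPM in the 2 untreated *eggd-1* libraries.

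22G-RNAs were the most abundant class. They took 40.5% of the genome-mapped reads in library 1 (95% Wilson interval 40.51 to 40.54) and 39.2% in library 2 (39.18 to 39.21), a mean of 39.9% ± 0.940 (SD, n = 2). miRNAs took 15.97% and 16.84%, and piRNAs took 5.83% and 6.05%. 26G-RNAs were rare, with 0.137% (0.136 to 0.139) and 0.140% (0.139 to 0.142). Ranked by class, the order was the same in both libraries and no ranges overlapped. The rRNA-derived siRNAs, which are antisense to ribosomal RNA, amounted to 10.1 and 6.91 RPM over 17 entries, and reads from structural RNAs had been set aside before alignment. Reads matching consensus sequences of repeats and transposons (RepBase) made up 2.40% and 2.27%. They were aligned separately and also count among the reads of the genome, so they are not added to the shares above.

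**Figure D1:**
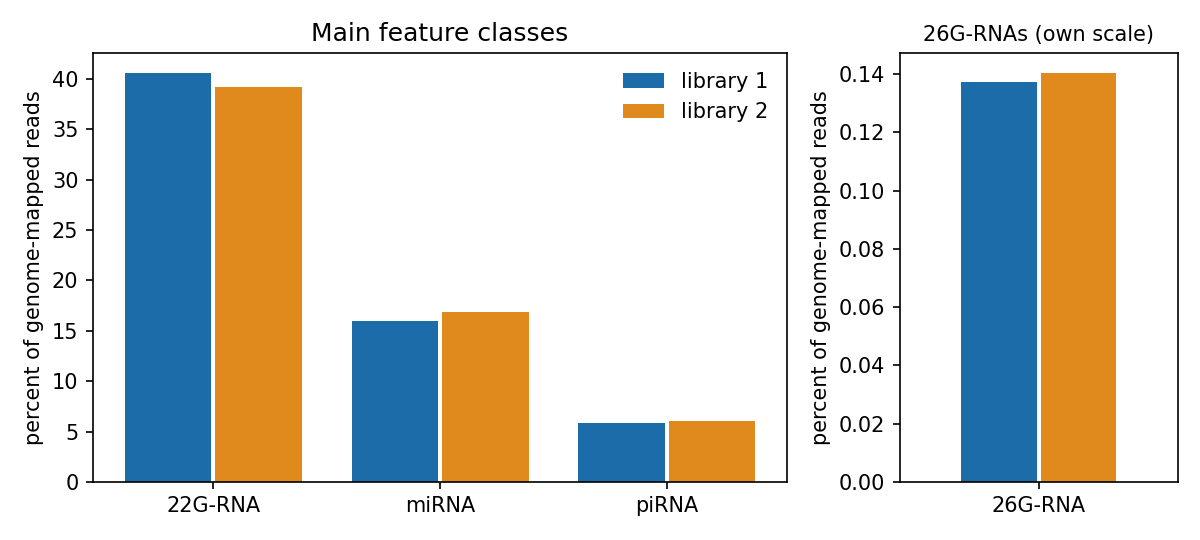
Percent of genome-mapped reads (y axis) in 22G-RNAs, miRNAs and piRNAs (left) and in 26G-RNAs on a scale of their own (right), 1 bar for each of the 2 untreated wild-type libraries. 22G-RNAs reach 40.5% and 39.2%, and 26G-RNAs stay at 0.137% and 0.140%.

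The classes spread their reads over very different numbers of features. Only 3 of 335 mature miRNAs held 50% of the miRNA reads, and 23 held 90%. Among 163 RepBase entries these numbers were 9 and 28, and among 6207 genes with 26G-RNA reads they were 29 and 1626. piRNAs and 22G-RNAs were spread over more features: 268 of 11891 piRNA loci held 50% and 2063 held 90%, and for 22G-RNAs 436 of 18840 genes held 50% and 3933 held 90%. As a share of a class's features, 50% of the reads took 0.896% of miRNAs, 0.467% of 26G-RNA genes, 2.25% of piRNA loci, 2.31% of 22G-RNA genes and 5.52% of RepBase entries, so that by this measure RepBase was the least concentrated. The 10 leading features together took 76.8% of miRNA reads, 53.9% of RepBase reads, 26.9% of 26G-RNA reads, 8.05% of piRNA reads and 5.91% of 22G-RNA reads. Taken separately, the libraries put 4 and 3 miRNAs, 258 and 275 piRNA loci, and 427 and 446 22G-RNA genes at the 50% mark. The 26G-RNA curve has a bend: 29 genes at 10 RPM or more held 51.3% and 49.7% of the class, while 4748 of the 6207 genes averaged under 3 counts, which is below what the depth can tell from a count of 0.

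**Figure D2:**
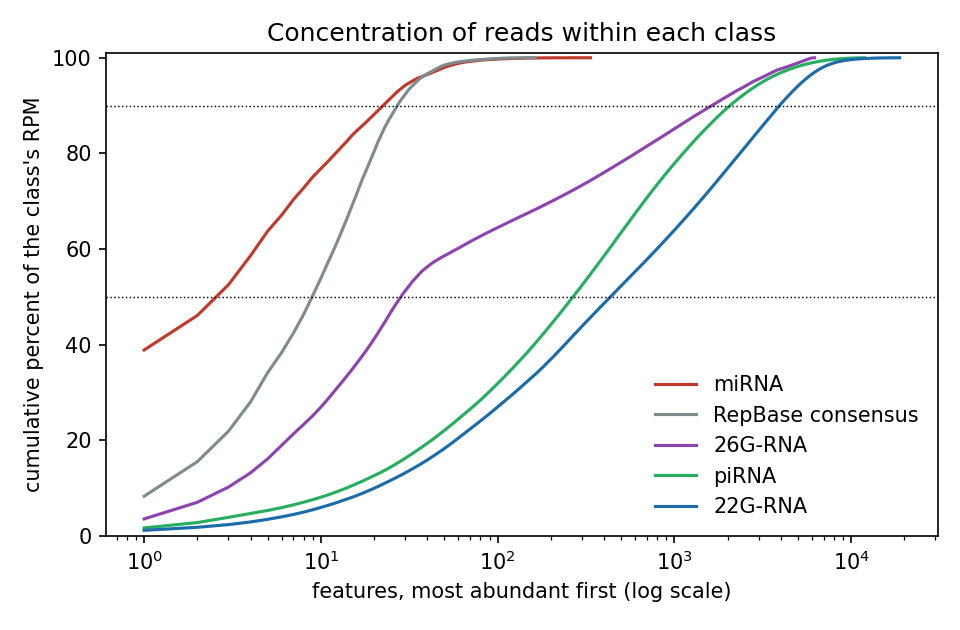
Cumulative percent of a class's mean RPM (y axis) against the number of features counted from the most abundant one (x axis, log scale), 1 line a class, with dotted lines at 50% and 90%. The miRNA line crosses 50% at 3 features and the 22G-RNA line at 436.

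miRNA abundance was dominated by miR-58a-3p, the most abundant miRNA of the bantam-related miR-58/80 family. It stood at 55644 and 71825 RPM, which is 34.8% and 42.7% of all miRNA reads. The hairpin, mir-58.1, lies on chromosome IV (WBcel235, 3233254 to 3233350). Its level was higher in library 2, whereas the remaining miRNAs summed to 104039 RPM in library 1 and 96569 RPM in library 2. Without it, 6 miRNAs rather than 3 held 50% of the reads. miR-71-5p, a miRNA with a known role in lifespan, followed at 12905 and 10817 RPM, and miR-38-3p, an embryonic miRNA of the miR-35 family, at 11206 and 9872 RPM. miR-80-3p, at 9863 and 10120 RPM, is of the same family as miR-58a-3p, and miR-1-3p, the muscle miRNA, had 8332 and 8501 RPM. The ranges of miR-71-5p and miR-38-3p over the libraries overlapped, and so did those of miR-38-3p and miR-80-3p, so their order is not set beyond the spread. The remaining members of the first 10 were miR-66-5p (5438 and 5584 RPM), miR-82-3p (5778 and 4884 RPM), miR-81-3p (4653 and 3386 RPM), miR-70-3p (3704 and 3762 RPM) and miR-87-3p (3150 and 2469 RPM). Library 1 and library 2 shared all of these 10.

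**Figure D3:**
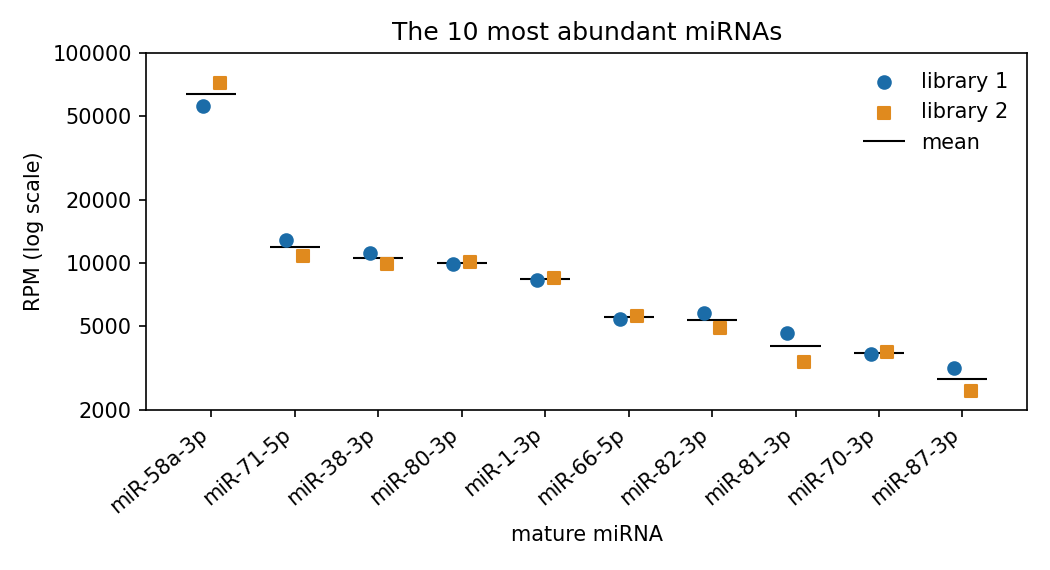
RPM (y axis, log scale) of the 10 most abundant mature miRNAs in library 1 (circles) and library 2 (squares), with a line at the mean of both. miR-58a-3p, at 55644 and 71825 RPM, lies above all others.

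miRNAs with known sites or times of expression were examined as fixed lists. All 8 hairpins of the miR-35 to miR-42 group, known from oocytes and embryos, were at 10 RPM or more and summed to 19343 and 16759 RPM, or 12.1% and 9.95% of miRNA reads. Within the group mir-38 alone had 11253 and 9908 RPM, mir-35 had 2557 and 2025 RPM, and mir-42 was lowest with 64.6 and 75.8 RPM. The 7 hairpins mir-35 to mir-41 lie together on chromosome II, and among them mir-41 was lowest with 87.6 and 113 RPM. mir-42 lies apart from them on the same chromosome. The temporal miRNAs lin-4, let-7, mir-48, mir-84 and mir-241, which drive larval stage transitions and remain in adults, summed to 5816 and 6060 RPM. mir-48 led them with 2460 and 2422 RPM, followed by let-7 with 1977 and 2175 RPM, while lin-4 had 266 and 221 RPM. The 2 neuronal miRNAs were scarce: mir-124 had 47.0 and 45.7 RPM, and lsy-6, which acts in a single taste neuron, had 3.97 and 4.56 RPM. mir-228, of glia and seam cells, had 151 and 118 RPM. Of the hairpins listed as germline miRNAs, mir-61 had 142 and 128 RPM, mir-44 had 23.3 and 16.9 RPM and mir-45 had 22.1 and 18.1 RPM, where mir-44 and mir-45 are listed with the 5p arm alone.

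miRNA families were uneven as well. The hairpins mir-58.1, mir-80, mir-82 and mir-81 of the miR-58/80 family summed to 75952 and 90227 RPM, or 47.6% and 53.6% of miRNA reads, while mir-58.2, which was not in the list, had 0.568 and 0.512 RPM. All 6 hairpins of the miR-51 family were detected, with 5243 and 5227 RPM in all, from mir-53 (135 and 118 RPM) to mir-52 (1801 and 1569 RPM). Among miRNAs known from ageing and stress, mir-239.1 had 1067 and 1204 RPM but its paralogue mir-239.2 only 6.39 and 7.38 RPM. mir-34 had 142 and 87.5 RPM, a difference between the libraries that was among the largest of the class. In total, 109 of 335 mature miRNAs reached 10 RPM, 60 reached 100 RPM and 27 reached 1000 RPM, while 149 stayed below 1 RPM.

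Most hairpins gave reads from 1 arm. Of 79 hairpins with at least 10 RPM and both arms listed, 61 had over 90% and 43 over 99% of their reads on 1 arm, and the median was 99.6%. The 3p arm was the major one in 52 hairpins and the 5p arm in 27. 3p arms held 77.7% and 80.3% of all miRNA reads, and 65.7% in each library without miR-58a-3p. mir-58.1 had 99.99% of its reads on the 3p arm, and let-7 over 99.99% on the 5p arm, and let-7-3p, at 0.0177 and 0.0160 RPM, was under the limit of 3 counts. Of the hairpins that averaged 1000 RPM or more, mir-52 (84.9% on the 5p arm) and mir-47 (81.2% on the 3p arm) were the ones with under 90% on 1 arm. Below that level, mir-51 (681 and 635 RPM) had 79.0% on the 5p arm and mir-46 (560 and 503 RPM) had 51.9% on the 3p arm.

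piRNAs came from many loci, nearly all on chromosome IV. Of 15363 piRNA genes in the annotation, 11891 (77.4%) had a read in at least 1 library. Chromosome IV held 99.96% and 99.97% of piRNA reads, and 11739 of its 14714 annotated loci had reads. Within it, the cluster between 13 and 18 Mb held 96.1% and 95.9% of all piRNA reads from 9606 loci, and that between 4 and 8 Mb held 3.77% and 4.01% from 2031 loci. The median level was 0.473 RPM per locus in the right cluster and 0.137 RPM in the left. The right cluster holds 11574 annotated loci and the left 2906.

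The piRNA with the most reads was 21ur-3730 on chromosome IV (14301789 to 14301809), with 987 and 946 RPM. It was followed by 21ur-2446 (643 and 687 RPM), 21ur-739 (602 and 689 RPM) and 21ur-4572 (507 and 472 RPM). The ranges of 21ur-2446 and 21ur-739 overlapped, so that only the places of 21ur-3730 and 21ur-4572 in this order were clear of the spread. The remaining 6 of the first 10 (21ur-1949, 21ur-3375, 21ur-917, 21ur-1367, 21ur-4287 and 21ur-1762) lay between 271 and 405 RPM and overlapped their neighbours. All 10 loci are in the right cluster. Fewer than 1 in 100 loci, 95 in all, reached 100 RPM, 1100 reached 10 RPM and 7875 (66.2%) stayed below 1 RPM, yet those 7875 held only 3.09% of piRNA reads.

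The authors' files mark some piRNA loci as oogenic or spermatogenic, after the female and male germline. The 1658 oogenic loci (13.9% of those with a read) held 33.4% and 33.8% of piRNA reads, whereas the 3385 spermatogenic loci (28.5%) held 10.5% and 10.2%. Their medians were 1.97 RPM per oogenic locus, 0.325 RPM per spermatogenic locus and 0.252 RPM per locus without a mark. Of the oogenic loci 23.9% reached 10 RPM, against 3.46% of the spermatogenic and 8.57% of the unmarked loci. The leading oogenic locus was 21ur-739, and the leading spermatogenic locus was 21ur-3775 with 254 and 187 RPM. The leading piRNA of all, 21ur-3730, carried no mark.

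22G-RNAs were antisense to 16577 protein-coding genes, 1422 pseudogenes, 701 transposable elements and 140 lincRNAs. Protein-coding genes took 77.9% and 78.0% of the 22G-RNAs, pseudogenes 12.4% and 12.3%, transposable elements 5.98% and 5.82%, and lincRNAs 3.75% and 3.83%. Set against the number of genes, pseudogenes (7.55% of the genes with reads), transposable elements (3.72%) and lincRNAs (0.743%) held more than their part and protein-coding genes (88.0%) less.

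The median gene and the sum ordered the biotypes differently. The median protein-coding gene had 1.15 and 1.14 RPM, against 0.284 and 0.288 RPM for the median pseudogene, 0.758 and 0.747 RPM for the median transposable element and 0.408 and 0.352 RPM for the median lincRNA. Where only genes averaging 10 counts or more were kept, the order of transposable elements and protein-coding genes turned round, with medians of 23.7 and 8.70 RPM. lincRNAs are short, however, with a median of 444 exon bases beside 1264 for protein-coding genes and 915 for pseudogenes. Per 1000 bases of exon, the median lincRNA had 1.02 and 1.04 RPM, the median protein-coding gene 0.896 and 0.896 RPM, and the median pseudogene 0.410 and 0.392 RPM, so that the order of lincRNAs and protein-coding genes turned round with the correction for length. No length was available for the transposable elements. Summed over genes, the load per 1000 bases of exon was 135 RPM for lincRNAs, 32.6 RPM for pseudogenes and 11.7 RPM for protein-coding genes. These medians are over genes with a read: of the annotated genes, 16569 of 19985 protein-coding genes, 1419 of 2128 pseudogenes and 140 of 194 lincRNAs had one.

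The biotypes also differed in how far their 22G-RNAs were concentrated. Only 3 lincRNAs held 50% of all lincRNA 22G-RNAs and 10 held 91.0%. For transposable elements 18, for pseudogenes 23 and for protein-coding genes 518 held 50%. At least 100 RPM was reached by 14 of 140 lincRNAs and by 6.47% of pseudogenes, 5.85% of transposable elements and 3.09% of protein-coding genes. At least 10 RPM was reached by 33.4% of transposable elements, 29.6% of protein-coding genes, 20.7% of lincRNAs and 19.5% of pseudogenes.

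The gene with the most 22G-RNAs was a lincRNA, linc-22 (WBGene00219699) on chromosome X, with 4604 and 4333 RPM, or 1.12% of the class. At 4071 exon bases it was long, and its level per 1000 bases of exon was 1098 RPM. The pseudogene Y59H11AR.6 followed with 2427 and 2631 RPM and, with 541 exon bases, had 4675 RPM per 1000 bases, but 3 annotated genes overlap it on the opposite strand. linc-29 had 2228 and 2296 RPM (3596 RPM per 1000 bases). WBTransposon00000216 (2290 and 2096 RPM), the lincRNA T09F5.12 (2253 and 2119 RPM), F02C12.3 (2154 and 2016 RPM), W09C5.12 (2060 and 1917 RPM), F37D6.3 (2043 and 1899 RPM), WBTransposon00000708 (2061 and 1821 RPM) and the pseudogene cars-2 (1967 and 1874 RPM) completed the first 10. From linc-29 to cars-2, each overlapped the next in range. Both libraries gave the same 10. Only 3 of these 10, F02C12.3, W09C5.12 and F37D6.3, were protein-coding, and all 3 are marked as MUT-16 and WAGO-1 targets in the files.

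Per length, the lead passed to short protein-coding genes. C44B11.6, with 189 exon bases, had 7901 and 7022 RPM per 1000 bases of exon, and F59C12.4, with 150 exon bases, had 7095 and 6738 RPM. Y59H11AR.6, F37D6.3 and linc-29 followed with 4675, 3623 and 3596 RPM per 1000 bases on average. C44B11.6 is marked as a target of ERGO-1, MUT-16 and WAGO-4 in the files. Further leading genes were fkb-8, a member of the FK506-binding protein family (1815 and 1795 RPM), F15D4.5 (1810 and 1651 RPM) among protein-coding genes, Y39E4B.14 (1749 and 1731 RPM), F32A11.5 (1633 and 1517 RPM) and Y46H3C.6 (1609 and 1354 RPM) among pseudogenes, linc-7 (1274 and 1241 RPM) and linc-8 (994 and 1068 RPM) among lincRNAs, and WBTransposon00000635 (1035 and 966 RPM) among transposable elements. F02C12.3, W09C5.12, Y39E4B.14, linc-7 and linc-8 are overlapped by annotated genes on the opposite strand, and linc-8 also by one on its own strand, so their values are uncertain.

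The class column of the authors' files marks genes as targets of Argonautes or of the mutator protein MUT-16, or by germline expression. The marks are not independent, since most marked genes carry several of them, and targets of small RNA pathways are usually defined by their small RNAs, so the levels describe the classes. Of 18840 genes with 22G-RNAs, 11456 carried a mark and held 92.0% of the 22G-RNAs in both libraries, while the 7384 unmarked genes (39.2%) held 8.01% and 7.96%. WAGO-4 targets (4744 genes) held 67.6% and 67.5%, MUT-16 targets (2127) 53.2% and 52.5%, and gender-neutral genes (5931), those expressed in both the female and the male germline, 46.2% and 46.7%. PRG-1 targets (1475) held 32.7% and 32.5%, CSR-1 targets (4007) 32.4% and 33.0%, HRDE-1 targets (1302) 32.2% and 32.0% and WAGO-1 targets (1462) 31.2% and 30.6%. Spermatogenic genes (2520) held 12.5% and 12.3% and oogenic genes (1690) 11.4% in each library. ALG-3/4 targets (1331) held 3.49% and 3.51%, and the 66 ERGO-1 targets 2.77% and 2.69%.

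Per gene and length, the classes fell into high, middle and low groups. ERGO-1 targets were highest, with a median of 84.6 and 77.3 RPM per 1000 bases of exon. HRDE-1 (24.4 and 24.1 RPM), MUT-16 (20.8 and 20.3 RPM) and PRG-1 targets (19.5 and 18.9 RPM) came next, and then WAGO-1 (14.3 and 13.9 RPM), WAGO-4 (14.02 and 13.86 RPM) and CSR-1 targets (12.8 and 12.6 RPM). The ranges of WAGO-1 and WAGO-4 targets overlapped. Gender-neutral genes had 9.11 and 9.01 RPM and oogenic genes 5.41 and 5.26 RPM. At the low end, ALG-3/4 targets had 0.515 and 0.483 RPM, spermatogenic genes 0.321 and 0.316 RPM, and unmarked genes 0.115 RPM in each library. The order depends on genes with several marks: for genes with the gender-neutral mark alone (1864 genes) the median was 0.695 RPM per gene, against 12.7 RPM for all genes that carry it, and for the oogenic mark alone (738 genes) it was 1.72 RPM, against 8.84 RPM.

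**Figure D4:**
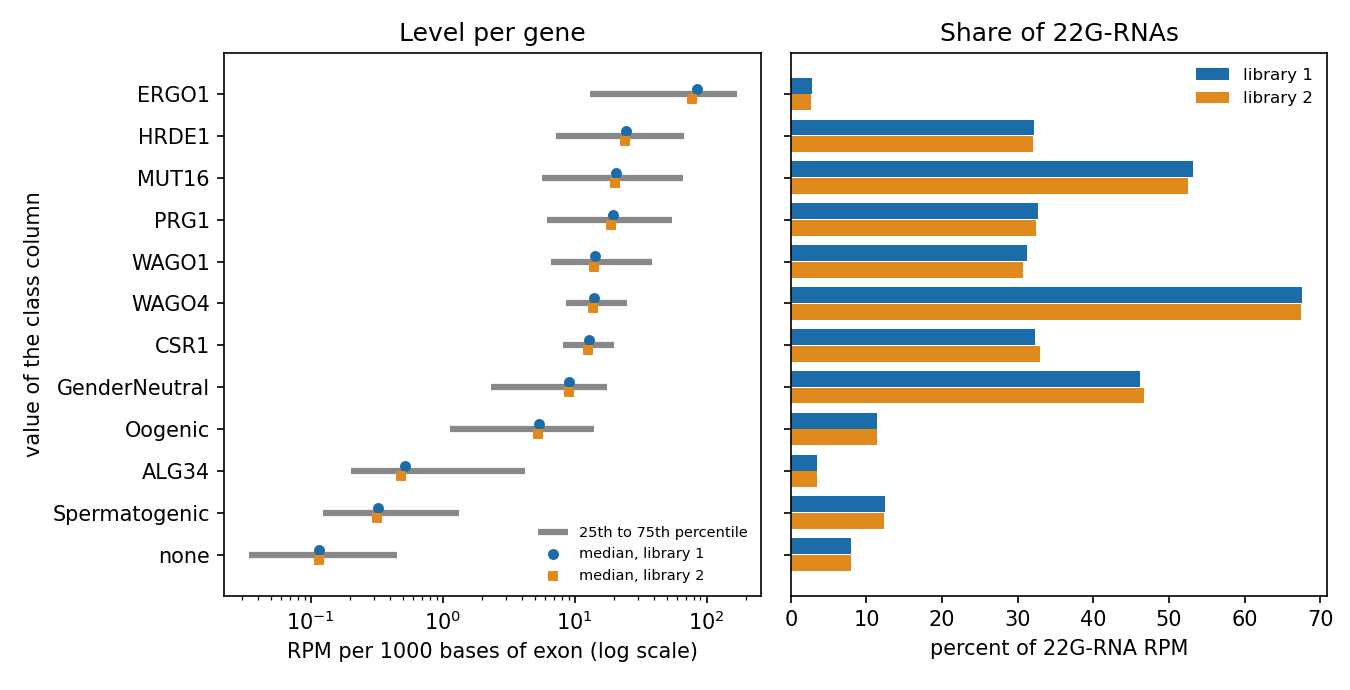
Left, 22G-RNA RPM per 1000 bases of exon by value of the class column (x axis, log scale), with a point for the median gene in each library and a bar from the 25th to the 75th percentile of the mean. Right, percent of all 22G-RNA RPM held by each class in each library, where a gene with several marks counts in each. ERGO-1 targets have the highest median, 84.6 and 77.3 RPM, and WAGO-4 targets the largest share, 67.6% and 67.5%.

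CSR-1 targets were the most uniform class, with WAGO-4 targets, which share 3440 genes with them, close behind. The 25th and 75th percentiles of CSR-1 targets, 8.15 and 19.9 RPM per 1000 bases of exon, differed by 2.44 times. This was 2.85 times for WAGO-4, 9.33 times for HRDE-1 and 11.8 times for MUT-16 targets. For 50% of the 22G-RNAs of a class, 729 of 4007 CSR-1, 344 of 4744 WAGO-4 and 123 of 2127 MUT-16 targets were needed. Accordingly 81.0% of CSR-1 targets but 73.1% of MUT-16 targets reached 10 RPM, while 4.02% of CSR-1 targets and 19.7% of MUT-16 targets reached 100 RPM. Both marks were carried by 134 genes, out of 2127 with the MUT-16 and 4007 with the CSR-1 mark. Over all genes with 22G-RNAs, 21.3% carried the CSR-1 and 11.3% the MUT-16 mark. The 3873 genes with the CSR-1 but not the MUT-16 mark held 30.5% and 31.1% of all 22G-RNAs, and the 1993 with MUT-16 but not CSR-1 held 51.3% and 50.6%. The 12840 genes with neither held 16.4% and 16.5%. WAGO-4 targets divided into 3440 that were also CSR-1 targets, with 30.7% and 31.3% of 22G-RNAs, and 1304 that were not, with 36.9% and 36.2%. Leading CSR-1 targets were E01G4.5 (1072 and 971 RPM), which also bears the MUT-16 and ERGO-1 marks, cls-2, a microtubule-associated CLASP protein (604 and 572 RPM), F13D12.5 (565 and 502 RPM), klp-7, a microtubule-depolymerizing kinesin (482 and 443 RPM), and xnp-1, a chromatin remodeller of the ATRX family (447 and 447 RPM).

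Germline sex classes were split by the MUT-16 mark. The 283 spermatogenic genes that are MUT-16 targets held 43509 and 41360 RPM, and the 2237 others held 7167 and 6856 RPM. Their medians per 1000 bases of exon were 23.3 and 23.2 RPM with the mark and 0.258 and 0.254 RPM without it. Genes of any kind were alike: 20.8 and 20.3 RPM with the MUT-16 mark, and 0.223 and 0.222 RPM with neither the MUT-16 nor the CSR-1 mark. linc-29, cars-2, fkb-8, Y39E4B.14 and F15D4.5 led the spermatogenic class and all carry the mark. Oogenic genes had 19.3 and 18.2 RPM per 1000 bases with the mark (257 genes) and 4.04 and 3.94 RPM without it (1433 genes). Leading oogenic genes were C44B11.6, the pseudogene Y17D7C.3 (1393 and 1308 RPM), E01G4.5, rnh-1.3, an RNase H gene (1006 and 1026 RPM), and zfp-1, a zinc finger gene related to AF10 (896 and 881 RPM). ALG-3/4 targets were likewise mixed: 988 of 1331 are also spermatogenic, with a median of 0.344 and 0.330 RPM per 1000 bases, and the 343 others had 11.2 and 10.7 RPM. The small RNA genes prg-1 and hrde-1 were among the 5 leading genes with the ALG-3/4 mark, but both also carry the CSR-1, WAGO-4 and gender-neutral marks. Annotated genes on the opposite strand overlap prg-1, klp-7 and zfp-1, so their values are uncertain.

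22G-RNAs at the genes of the small RNA machinery itself were examined by function. Over all genes with 22G-RNAs and a known length the median was 0.820 RPM per 1000 bases of exon. It was 12.7 RPM over CSR-1 targets, 13.9 RPM over WAGO-4 targets and 19.2 RPM over the 4 oocyte genes named below. Levels near these are thus not particular to the machinery. Germ granule genes had a median of 34.6 RPM over the 11 of 15 listed names found with reads, led in this measure by pgl-1 (162 and 159 RPM, or 64.5 RPM per 1000 bases) and glh-1, a Vasa-related helicase (159 and 154 RPM, or 56.6 per 1000 bases). The tag of this strain sits in pgl-1, and its part in the pgl-1 value was not tested. znfx-1, the Z granule helicase, had 213 and 212 RPM. Among 13 of 15 listed germline Argonaute genes the median was 15.8 RPM per 1000 bases, and prg-1 (315 and 319 RPM, or 118.8 per 1000 bases), hrde-1 (313 and 313 RPM, or 88.4), wago-4 (251 and 249 RPM, or 74.1), ppw-2 (216 and 203 RPM, or 64.2) and csr-1 (173 and 181 RPM, or 48.3) were high. The spermatogenesis Argonautes alg-3 (1.15 and 1.41 RPM, or 0.391 per 1000 bases) and alg-4 (0.745 and 0.208 RPM, or 0.138) and wago-10 (0.461 and 0.320 RPM, or 0.121) were low. The 4 RNA-dependent RNA polymerase genes lay between 8.28 RPM per 1000 bases at rrf-3 (44.0 and 47.6 RPM) and 27.9 at rrf-2 (140 and 132 RPM), and 10 of 11 listed mutator genes between 4.65 at mut-2 (8.02 and 6.46 RPM) and 47.3 at mut-14 (86.2 and 79.2 RPM). Among somatic and shared Argonautes, rde-1 had 35.8 and 37.8 RPM (11.4 per 1000 bases), alg-1 had 14.5 and 13.4 RPM (2.08) and sago-1 had 0.958 and 0.960 RPM (0.312). The RNAi genes sid-1, the double-stranded RNA channel (600 and 592 RPM), and rde-11, which acts in exogenous RNAi (650 and 748 RPM), had 225 and 518 RPM per 1000 bases, more than any gene named above in this paragraph.

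Genes of known tissues had unlike 22G-RNA levels. The oocyte genes oma-1, oma-2, puf-5 and rme-2 had between 10.9 and 29.9 RPM per 1000 bases of exon, and the 6 vitellogenin genes, which are expressed in the intestine, between 0.376 and 0.587 RPM. The muscle genes were lower still, with unc-54, the major body wall myosin, at 2.06 and 1.81 RPM, or 0.312 RPM per 1000 bases. myo-2 (0.0355 and 0.0320 RPM) and myo-3 (0.0532 and 0.0160 RPM) were under the limit of 3 counts, and unc-15 (0.0710 and 0.128 RPM) was close to it. The 4 neuronal genes lay from 2.76 RPM per 1000 bases at unc-17 (5.54 and 5.06 RPM) to 13.03 RPM at snb-1 (10.4 and 10.6 RPM). The sperm genes were the msp and spe genes with gsp-3 and gsp-4. Of these 62, 54 (87.1%) were below 1 RPM, beside 50.0% of all 18840 genes with 22G-RNAs. Per 1000 bases of exon, their median was 0.384 RPM with quartiles of 0.190 and 0.516 RPM. Over all genes the median was 0.820 RPM with quartiles of 0.110 and 9.78 RPM, so the sperm genes lay within the lower part of the general range. In RPM, spe-39 (32.3 and 34.1 RPM) and spe-41 (26.3 and 26.1 RPM) were highest.

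Large gene families differed in the spread among members. Ribosomal protein genes had a median of 13.6 RPM per 1000 bases of exon over 78 genes, quartiles of 8.06 and 20.2 RPM and a range from 1.36 to 91.5 RPM. Histone genes had a like median of 15.2 RPM over 72 genes, quartiles of 7.58 and 28.2 RPM and a range up to 883 RPM at his-24, a linker histone gene with 810 and 820 RPM. his-47 and his-65, which have identical values in both libraries, had 219 and 321 RPM each. F-box genes were close to all genes: 181 of 358 (50.6%) were below 1 RPM and 24.9% reached 10 RPM, beside 50.0% and 28.9% of all genes with 22G-RNAs. In this family fbxa-203 (897 and 874 RPM), fbxb-97 (584 and 559 RPM) and fbxc-43 (533 and 511 RPM) were among the high ones. Nuclear hormone receptor genes, with 159 of 232 (68.5%) below 1 RPM and a median of 0.228 RPM per 1000 bases, were led by nhr-15 (368 and 351 RPM). Of 111 collagen genes 98 (88.3%) were below 1 RPM. Their medians were 0.0644 RPM per gene and 0.0561 RPM per 1000 bases. The median per gene is under the limits of counting given above, 0.106 and 0.0960 RPM, so the level of the median collagen gene is not resolved at this depth. In RPM, col-71 (98.7 and 84.4 RPM), col-45 (79.4 and 79.2 RPM), col-111 (64.3 and 58.6 RPM) and col-157 (52.7 and 51.6 RPM) stood above the median per gene. The family members with near-identical sequences share reads that map to several places, so single values within the families are uncertain.

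**Figure D5:**
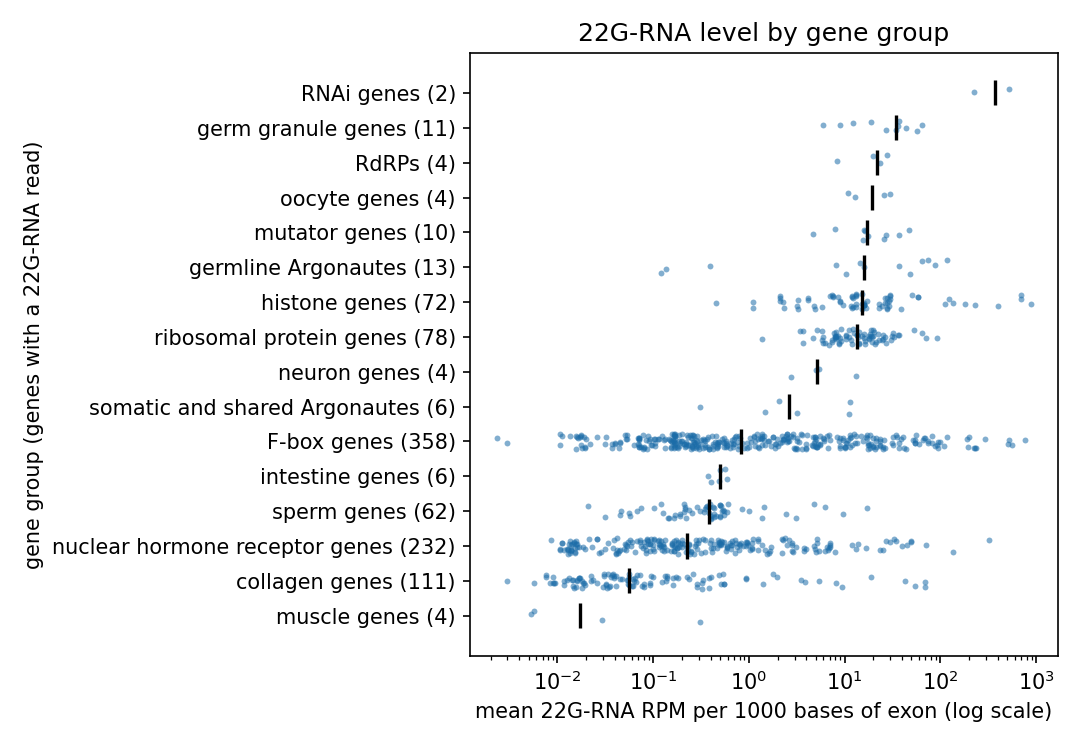
Mean 22G-RNA RPM per 1000 bases of exon (x axis, log scale) for each gene with a read in the named groups, with the number of genes in brackets and a vertical line at the median. Germ granule genes have a median of 34.6 RPM and collagen genes one of 0.0561 RPM, a level not resolved at this depth.

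By chromosome, the level of the median protein-coding gene was higher on I and III than on the other chromosomes. Protein-coding genes on chromosomes I and III had medians of 4.86 and 4.70 RPM (I) and 5.66 and 5.68 RPM (III) per 1000 bases of exon, against 0.281 and 0.279 RPM on X and 0.321 and 0.315 RPM on V. Chromosomes II (1.00 and 1.01 RPM) and IV (0.770 and 0.764 RPM) lay between. The share of genes with 22G-RNAs that carry the CSR-1 mark moved with this order, from 36.1% on III and 34.8% on I to 14.6% on V and 2.64% on X. Its part in the order was not tested. The X chromosome still held 10.7% and 10.6% of 22G-RNAs, of which linc-22 and F02C12.3 were a part, and the mitochondrial genome held 0.461 and 0.832 RPM.

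26G-RNAs were concentrated in few genes, and 13 of the 29 at 10 RPM or more were not protein-coding. Protein-coding genes made up 88.1% of all 6207 genes with 26G-RNA reads. Y37E3.30 had 51.0 and 46.5 RPM, K02E2.11 had 44.1 and 52.5 RPM, linc-11 had 41.0 and 47.5 RPM, the pseudogene E01G4.7 had 44.1 and 38.7 RPM and F55C9.3 had 41.2 and 40.2 RPM. The ranges of these 5 overlapped their neighbours, so their order is not set. They were followed by the pseudogene Y17D7C.3 (41.0 and 37.3 RPM), T05E12.8 (34.96 and 32.00 RPM), the pseudogene Y105C5A.14 (31.0 and 24.4 RPM), T16A1.10 (24.0 and 26.1 RPM) and W04B5.8 (25.6 and 24.2 RPM). Y37E3.30, K02E2.11 and Y105C5A.14 are overlapped by genes on the opposite strand and W04B5.8 by a pseudogene on the same strand, where reads are divided, so these assignments are uncertain. Of the 29 genes at 10 RPM or more, 16 were protein-coding, 8 pseudogenes, 4 lincRNAs and 1 a transposable element. Among all genes with 26G-RNA reads, pseudogenes made up 5.69%, lincRNAs 0.773% and transposable elements 5.46%.

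The known 26G-RNA branches covered part of the class. The 53 ERGO-1 targets with reads held 22.96% and 21.29% of 26G-RNAs with a median of 0.727 and 0.624 RPM per gene, and 12 of them were among the 29 leading genes. The 1260 ALG-3/4 targets held about as much, 23.59% and 25.02%, but spread thinly, with a median of 0.142 and 0.128 RPM and 1 gene, K02E2.11, among the 29. The number of genes holding 50% was 5 for ERGO-1 and 128 for ALG-3/4 targets. No gene carried both marks. Neither mark was carried by 16 of the 29 leading genes, beside 4894 of all 6207 genes with 26G-RNA reads. Per 1000 bases of exon, lincRNAs had a median of 0.910 and 0.935 RPM, against 0.0251 and 0.0267 RPM for protein-coding genes, over 48 and 5466 genes. The median protein-coding gene had 0.0355 and 0.0320 RPM, under the limit of 3 counts, so its level is not resolved at this depth.

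Secondary and primary siRNAs stood in unlike proportion. Over all genes there were 294.8 and 279.4 22G-RNA reads for each 26G-RNA read, but only 35.6 and 35.3 at ERGO-1 targets and 43.7 and 39.3 at ALG-3/4 targets. Unmarked genes had 93.4 and 87.9, which is also below the value over all genes. ALG-3/4 targets that are also spermatogenic had 3116 and 2967 RPM of 22G-RNAs and 226 and 244 RPM of 26G-RNAs. The other ALG-3/4 targets had 11041 and 10807 RPM of 22G-RNAs and 98.4 and 107 RPM of 26G-RNAs, so the pooled proportion describes neither set. Targets are usually defined by their small RNAs, so these proportions describe the classes. The 29 leading 26G-RNA genes had a median of 283 RPM of 22G-RNAs. Among the 10 leaders, Y17D7C.3 had 1351 RPM and Y37E3.30 had 1030 RPM of 22G-RNAs, while T05E12.8 had 51.2 RPM.

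Transposon consensus sequences were led by DNA transposons and by endogenous retrotransposons. These levels are reads per consensus with no length behind them, so they compare totals and not density. Chapaev-2_CE had 1942 and 1912 RPM, MARINER2_CE had 1753 and 1618 RPM, CER9-I_CE, the internal part of a retrotransposon with long terminal repeats (LTRs), had 1562 and 1410 RPM, NeSL-1, a retrotransposon without LTRs, had 1486 and 1379 RPM and TC1, a DNA transposon, had 1461 and 1395 RPM. The ranges of CER9-I_CE, NeSL-1 and TC1 overlapped. CER8-I_CE (1043 and 920 RPM), CER3-I_CE (1007 and 901 RPM), CER2-I_CE (961 and 873 RPM), MARINCE1 (929 and 900 RPM) and CER16-2-I_CE (855 and 821 RPM) completed the first 10.

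By kind, the 18 internal CER entries held 32.3% and 31.4% of RepBase reads, the 9 Tc elements 15.97% and 16.18%, the 4 Mariner entries 11.8% and 11.7% and the 2 Chapaev entries 9.64% and 10.1%. The 20 CER LTR entries held 6.73% and 6.76%. In all 16 pairs of an internal part and its LTR matched by name, the internal part had more reads in the mean. The median was 4.85 times, from 1.10 times at CER5 to 164 times at CER15. At CER5, library 1 had 0.887 RPM in the internal part and 0.994 RPM in the LTR, and at CER11, library 2 had 3.12 RPM in the internal part and 3.22 RPM in the LTR, so these pairs did not keep this order in both libraries. No length was available, so the length of a part and its density of reads cannot be told apart. CER1 (48.2 and 47.0 RPM) and LTRCER1 (13.4 and 13.5 RPM) were not among the pairs matched by name. The 6 Helitron entries summed to 48.8 and 48.5 RPM. Of 163 entries, 35 reached 100 RPM and 48 stayed below 1 RPM.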

How the data were processed

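Small RNAs of adult *C. elegans* were treated with the polyphosphatase PIR-1, which lets 5′-triphosphorylated 22G-RNAs be ligated, cloned and sequenced. The authors trimmed reads with Trim Galore, set aside those aligning to structural RNAs, and aligned the rest with Bowtie to the WormBase WS279 genome without mismatches and with up to 1000 locations. The deposited expected counts divide each read over its locations and overlapping features, and 78.8% and 78.9% of them were whole. The deposited RPM values scale them to genome-mapped reads, a number recovered as count over RPM. 22G-RNAs were antisense, 21 to 23 nucleotides long and began with G or A, while piRNA reads were sense, unique and began with T, so shares depend on these definitions. Tool versions are not given in the sources used here. The class column is the authors' assignment.

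Groups came from the labels. Values of both libraries were averaged per entry, with 0 where a library lists none, and given with the SD (Python 3.11.15, pandas 2.3.3, scipy 1.17.1). Exon lengths and coordinates came from Ensembl release 115 (WBcel235, the assembly of WS279), and miRNA coordinates from RefSeq. Precursor entries, which count miRNA reads again, were left out. Counts of the libraries differed by more than sampling noise in each main class, with a chi-square statistic over its degrees of freedom between 1.58 (26G-RNAs) and 393 (miRNAs), and both were kept as replicates. The functions were tested on simulated data. Named were the 10 leading features of a class, up to 5 leading genes of a biotype or class, members of fixed lists and features whose libraries differed most; members and lists were chosen with earlier results of these data known. Alternatives were other denominators, filters, exon length, collapsed identical entries and leaving out either library. Mature sequences and motifs were not analysed here.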

Additional observations from a re-analysis of the deposited data

How the results depend on the processing

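Relative to the reads assigned to the main classes instead of all genome-mapped reads, 22G-RNAs took 63.9%, miRNAs 26.3%, piRNAs 9.53% and 26G-RNAs 0.223%. Counting precursor entries with the miRNAs, which adds the same reads again, gave 32.9% and 6 features for 50% of the reads. Leaving out miR-58a-3p, an alternative chosen after seeing the data, gave 10.03% and 6. Each other number of features holding 50% of a class stayed within 1.5 times its value. The median 22G-RNA level per gene moved most. With at least 10 counts it was 8.70 RPM for protein-coding genes, 4.94 RPM for pseudogenes, 23.7 RPM for transposable elements and 7.89 RPM for lincRNAs, and over every annotated gene 0.417, 0.0433 and 0.0511 RPM for protein-coding genes, pseudogenes and lincRNAs. Per 1000 bases of exon these 3 had 0.891, 0.398 and 1.06 RPM. Collapsing genes with identical values gave 2.14 RPM for protein-coding genes and 0.279 RPM for pseudogenes, but at low counts values are also equal by coincidence. For genes with a single mark, the medians were 35.2 RPM (ERGO-1), 9.44 RPM (MUT-16), 5.98 RPM (CSR-1) and 0.262 RPM (spermatogenic), over 9, 75, 42 and 1235 genes, and the medians of gender-neutral (0.695 RPM), oogenic (1.72 RPM), WAGO-4 (9.49 RPM) and ALG-3/4 genes (0.367 RPM) were lower too. Protein-coding genes alone gave 76.2 RPM (ERGO-1) and 0.352 RPM (spermatogenic). Per 1000 bases of exon the values were 82.6 RPM (ERGO-1), 20.7 RPM (MUT-16), 12.7 RPM (CSR-1) and 0.313 RPM (spermatogenic), and with at least 10 counts 27.9 RPM (MUT-16), 1.46 RPM (spermatogenic) and 1.16 RPM (unmarked). Leaving out either library moved medians by more than their spread, in 1 or both cases, for HRDE-1, WAGO-4 and ALG-3/4 targets and for 5 groups whose values became 0.284 to 0.288 RPM for pseudogenes, 0.747 to 0.758 RPM for transposable elements, 0.352 to 0.408 RPM for lincRNAs, 0.352 to 0.355 RPM for spermatogenic genes and 0.106 to 0.112 RPM for unmarked genes. Of the 10 leading features, at least 8 were shared by each library alone. With 2 libraries the SD rests on 1 difference. No paired analysis was possible because 1 group gives no comparison.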

Other observations

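The largest difference between the libraries among features at 10 RPM or more was 1.17-fold over 59 RepBase entries, 1.27-fold over 29 26G-RNA genes, 1.48-fold over 5439 22G-RNA genes, 1.76-fold over 109 miRNAs and 1.86-fold over 1100 piRNA loci.

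The 5 22G-RNA genes that differed most were histone genes, but they are not 5 separate observations. his-30 and his-33 have identical values, at 8.25 and 12.2 RPM each. his-47 and his-65 are also identical, at 219 and 321 RPM each, and his-57 was close to them with 220 and 322 RPM. Genes of near-identical sequence share reads that map to several places. All 5 were higher in library 2, while his-24 had 810 and 820 RPM. All 72 histone genes summed to 2099 and 2561 RPM. Among miRNAs miR-65-3p (46.0 and 26.1 RPM), miR-34-5p (138 and 83.7 RPM) and miR-233-3p (216 and 137 RPM) were lower in library 2, and so was the piRNA 21ur-1404 (366 and 210 RPM), while 21ur-3779 (11.1 and 20.7 RPM) and 21ur-12054 (11.3 and 20.8 RPM) were higher there. With 1 library at each value, no test separates these from the spread between samples.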
